A study of Mus musculus with 4 samples.

Results

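Cajal-Retzius cells were selected from 4 droplet libraries of the E12.5 mouse forebrain by their own transcripts. A barcode was kept with more than 1000 genes detected, mitochondrial UMIs below 5% and Hbb UMIs below 1%, a UMI (unique molecular identifier) being 1 captured transcript. A kept barcode counted as a Cajal-Retzius cell with 2 or more Reln UMIs and a UMI in 2 or more of Trp73, Lhx1, Lhx5, Ebf3, Calb2 and Nhlh2. The rule found 57 cells among 18957 kept barcodes, of which 49 came from the cortex (CTX), 8 from the caudal ganglionic eminence (CGE) and 0 each from the lateral (LGE) and medial (MGE) eminences. All 4 groups were wild-type C57BL/6 embryos at E12.5 with no allele or agent added, each region was 1 library, and tissue was pooled over embryos. The study profiled these regions to compare progenitors of the ganglionic eminences with each other and with the cortex. The labels describe live cells collected on a sorter, whereas the methods describe wild-type cells as counted and not sorted. This was not settled, so a share of cells may reflect a sorting step.

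Cajal-Retzius cells are early-born glutamatergic neurons of the marginal zone, the outermost layer of the developing cortex. They arise at the edges of the cortical sheet, among them the cortical hem and the septum, and spread tangentially beneath the pia. They secrete Reelin, the product of Reln, which binds Vldlr and Lrp8 on migrating neurons, acts through the adaptor Dab1 and guides the layering of the cortex. Trp73 is a p53 relative, Lhx1, Lhx5, Ebf3 and Nhlh2 are transcription factors, and Calb2 encodes the calcium-binding protein calretinin. These 7 genes chose the cells, so their levels are descriptions and not findings.

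The 49 CTX cells were 1.11% of 4418 kept CTX barcodes (exact 95% binomial interval 0.822 to 1.46). The 8 CGE cells were 0.217% of 3681 (0.0939 to 0.428). By the same interval the 0 of 5383 LGE cells allow a share of up to 0.0685%, and the 0 of 5475 MGE cells up to 0.0674%. The CTX and CGE intervals do not overlap. All intervals and limits here cover counting error only, and with 1 library per region no test between regions was possible. The median depth of the CTX Cajal-Retzius cells was 8893 UMIs (1921 to 28913), beside 8375 for all kept CTX barcodes, and that of the CGE cells was 8402.5 (6013 to 109138). Pairs of libraries shared 4 to 15 barcodes, and no Cajal-Retzius barcode was among them. Another 7 CTX barcodes met the marker rule but failed the filter, 5 on gene number, 5 on mitochondrial UMIs and 1 on Hbb, some on more than 1.

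In raw UMIs per cell, Reln split the 49 CTX cells into a high and a low set with an empty stretch between them. This split does not take depth into account. A low cell with 4 Reln UMIs of 1921 stood higher per UMI than a high cell with 12 of 6065. Scaled to depth, the 2 sets thus overlap. In 37 cells Reln ranged from 12 to 48 UMIs with a median of 29, in the other 12 it ranged from 2 to 6 with a median of 3, and no cell lay between 6 and 12. The 37 cells with 10 or more Reln UMIs each carried 4 or more of the 6 other marker genes, and 16 of them carried all 6. Of the 12 cells with fewer, 3 carried 4 or more. Summed over cells, Trp73 stood at 273 CPM (UMIs of the gene per 1000000 UMIs) in the high set and 23.4 in the low set, Lhx5 at 239 and 39.0, and Ebf3 at 193 and 0. The 3 Trp73 and 5 Lhx5 UMIs of the low set all lay in its 6 shallow cells. Most of its summed UMIs came from 6 deep cells (both described below), so its low levels of these 2 genes do not describe the shallow cells. Just outside the rule, 9 CTX cells had 1 Reln UMI with 2 or more other markers, 37 had 2 or more Reln UMIs with 1 other marker, and 76 had 2 or more Reln UMIs with none. Of these 3 sets, the 37 cells had a median depth of 14165 UMIs, no Trp73 UMI and Neurod6 at 1158 CPM.

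**Figure D1:**
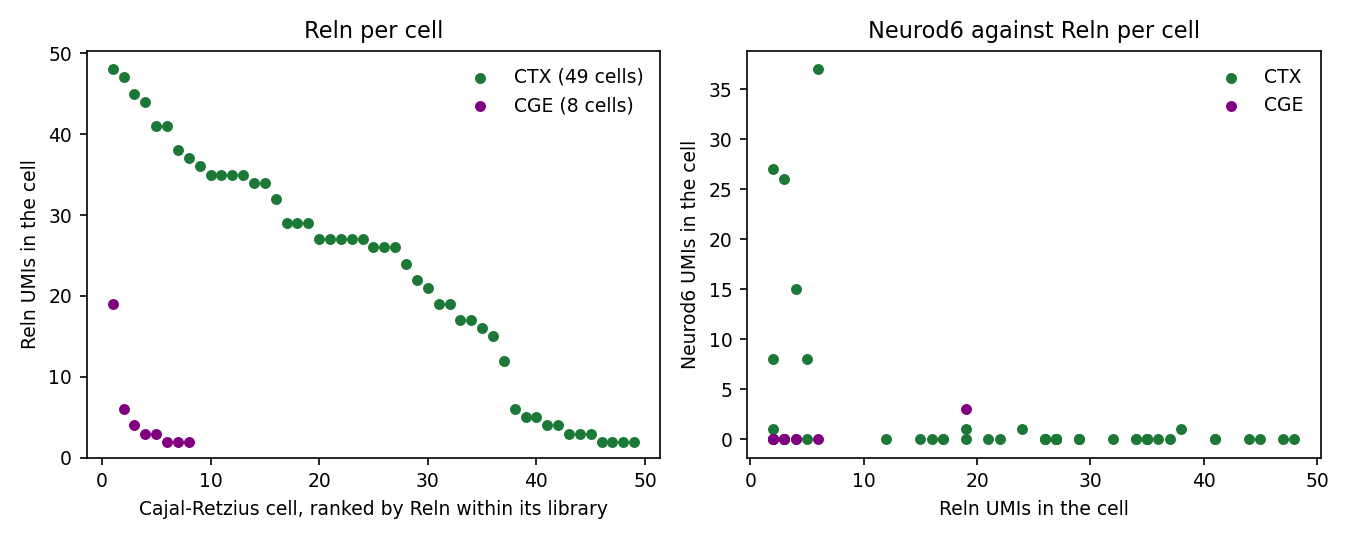
Reln UMIs in each Cajal-Retzius cell, ranked within its library (left), and Neurod6 UMIs against Reln UMIs in the same cells (right). Among the CTX cells, 37 lie at 12 to 48 Reln UMIs and 12 at 2 to 6, and the 6 CTX cells with 8 to 37 Neurod6 UMIs are in the low set.

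The 12 low cells were of a mixed kind in genes that the rule did not use. In 6 of them Neurod6, a transcription factor of cortical projection neurons, ranged from 8 to 37 UMIs, and these were deep cells of 11982 to 28913 UMIs. Each of the 6 had exactly 2 other marker genes and no UMI of Trp73 or of the nuclear receptor gene Nr2f2. The data therefore go against the label Cajal-Retzius for these 6 cells, although they meet the rule. The remaining 6 were shallow cells of 1921 to 6484 UMIs with 0 or 1 Neurod6 UMI, 3 to 5 other markers and 1 to 5 Nr2f2 UMIs. The marker genes chose the 37 high cells and are no check of the label in them. Among the listed genes that are named below, 6 that were 2-fold apart over all 49 cells were within 2-fold in the high cells alone, and their levels there are given beside them.

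Resemblance was also examined without the 7 rule genes and without Dcx, over 2000 variable genes and 30 principal components. On average 80.8% of the 20 nearest CTX neighbours of a Cajal-Retzius cell were Cajal-Retzius cells, beside their share of 1.11% among kept CTX barcodes. The mean was 98.0% for the 37 high cells, of which 36 had 50% or more, and 27.9% for the 12 low cells, of which 3 did. The exception among the high cells had 38 Reln UMIs and a share of 25%. Conversely, 3 barcodes outside the rule had 50% or more Cajal-Retzius neighbours, and these held 0, 10 and 4 Reln UMIs with 5, 1 and 1 other markers. Genes of the cells clustered are correlated with the rule genes, so this is a description.

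**Figure D2:**
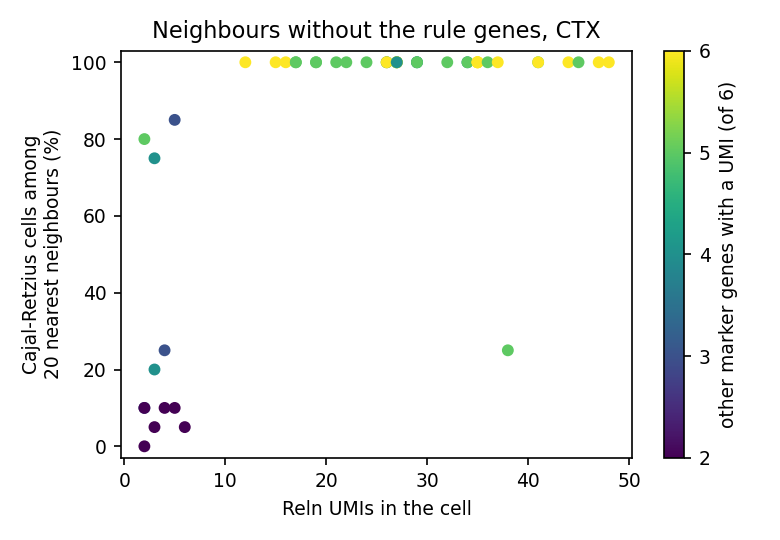
Share of Cajal-Retzius cells among the 20 nearest neighbours of each of the 49 CTX Cajal-Retzius cells against its Reln UMIs, coloured by the number of other marker genes with a UMI. All but 1 of the cells with 10 or more Reln UMIs lie at 100%, and that 1 lies at 25%.

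Most Cajal-Retzius cells fell outside the gate on Dcx used to pick young neurons, as did over 50% of other cells with neuronal factor genes. Dcx encodes doublecortin, a microtubule protein of migrating neurons. On the scale ln(1 + UMIs per 10000), Dcx in the 49 CTX cells ranged from 0 to 2.07 with a median of 1.03, and 14 cells had no Dcx UMI. Of the 49 cells, 12 (24.5%) passed the high-Dcx gate of 1.5. In 1989 other CTX cells with 2 or more UMIs of Neurod2 and Neurod6 together the median was 1.40, and 906 (45.6%) passed. Summed Dcx was 242 CPM in the Cajal-Retzius cells, 347 CPM in those 1989 cells and 182 CPM over all kept CTX barcodes. After each cell was thinned to 3000 UMIs, Dcx was seen in 34.8% of 46 Cajal-Retzius cells, and before thinning in 71.4% of 49. The neuronal tubulin gene Tubb3 was seen in all 46 thinned cells.

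Transcript levels were then set against 988 other CTX cells above the Dcx gate, a comparison fixed on Dcx for those cells only, so Dcx itself is not compared further. UMIs were summed over the cells of each group, and a gene was compared where its mean CPM over both groups was 25 or more. Of 5939 such genes, 357 (6.01%) were 2-fold or more higher in Cajal-Retzius cells and 324 (5.46%) were 2-fold or more lower, on a log2 scale with a pseudocount of 1 CPM, and the median log2 ratio was 0.00. All 7 rule genes were among the higher genes. Cells of 1 library are not replicates, so "higher" and "lower" below name a 2-fold size and not a test. The filter takes the mean of both groups, so a gene near 0 in 1 group could pass only by being 2-fold or more apart. Counts of higher and lower genes are therefore descriptions. Fewer transcripts per cell and fewer cells with any are both held in a summed level. The median depth was 8145.5 UMIs in the comparison cells.

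**Figure D3:**
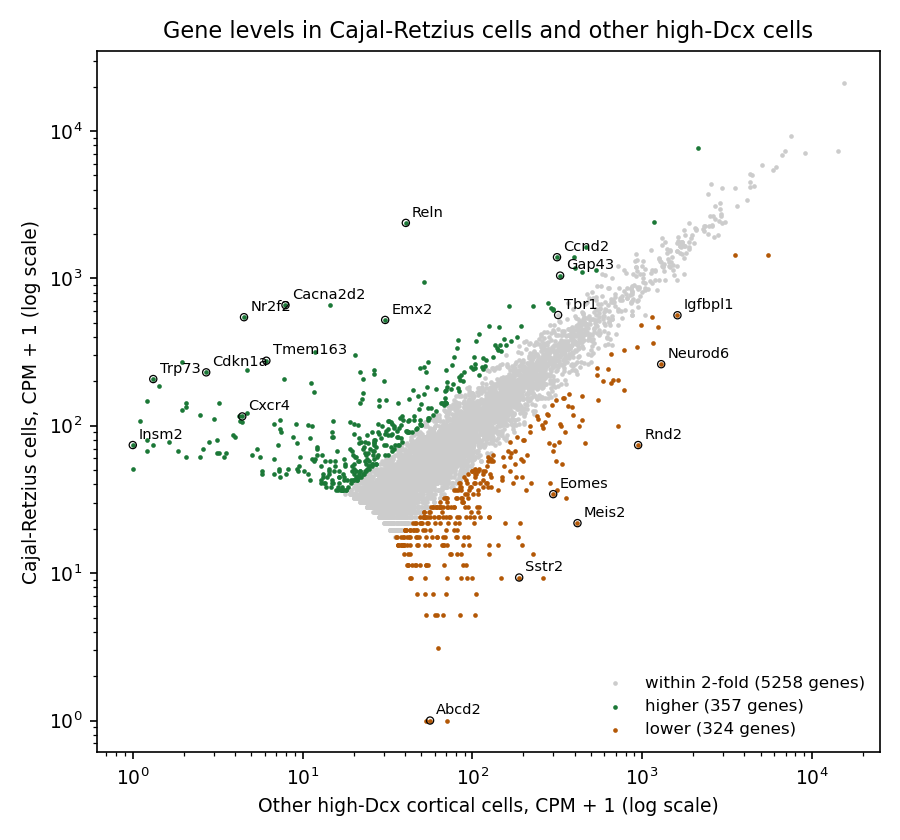
Level of each of 5939 genes in 49 Cajal-Retzius cells against 988 other high-Dcx CTX cells, as CPM + 1 on log axes. Green points are the 357 genes that were 2-fold or more higher, brown points the 324 that were lower, and circled genes are named (Reln and Trp73 belong to the rule).

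Genes known from Cajal-Retzius cells but not used by the rule were mostly higher. Of 24 such genes 18 passed the level filter, 13 were higher, 1 was lower and 4 were within 2-fold, with a median log2 ratio of 4.10 beside 0.00 over all 5939 genes. Most of the 13 stood so low in the comparison cells that they could pass the filter only by being higher. Their count and the median are therefore descriptions and no check of the label. Nr2f2, which encodes the receptor COUP-TFII, ranged from 0 to 15 UMIs per cell with a median of 5, was seen in 43 of 49 Cajal-Retzius cells and in 25 of 988 comparison cells, and stood at 544 against 3.52 CPM, 155-fold (95% interval 107 to 229). All 37 high cells had a Nr2f2 UMI. Cacna2d2, an auxiliary subunit of voltage-gated calcium channels, ranged from 0 to 18 UMIs per cell with a median of 7 and stood at 656 against 6.93 CPM, 94.7-fold (95% interval 72.3 to 126). It too was present in all 37 high cells, and in 56 of 988 comparison cells. After thinning to 3000 UMIs, Nr2f2 was seen in 78.3% of Cajal-Retzius cells, 0.991% of comparison cells and 0.195% of 1026 CTX cells high in the progenitor gene Nes. The same shares for Cacna2d2 were 78.3%, 2.86% and 0.292%.

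Free RNA was gauged in 156 CTX barcodes with more than 50% globin UMIs, red blood cells by that measure, whose other UMIs had a median of 1137. Reln was seen in 11.5% of them, Neurod6 in 9.62%, Ccnd2 in 22.4% and Emx2 in 6.41%. Nhlh2 was seen in 2 of the 156 barcodes, and Trp73, Calb2, Cxcr4, Ebf2 and Rspo3 in 1 each. Cacna2d2, Nr2f2, Cdkn1a, Zic1 and Lhx1 were seen in 0 of 156. With 3 barcodes taken as the limit for a count of 0, this allows a share of up to 1.92%. Reln, Ccnd2 and Emx2 were thus also present in barcodes of another cell type, and Nr2f2 and Cacna2d2 were not detected there at that shallower depth.

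Of the 13 higher genes of this list, 8 encode transcription factors, Nr2f2 and the 7 that follow. Emx2, a homeobox factor of the caudomedial cortex, ranged from 0 to 14 UMIs per cell with a median of 5 and stood at 521 against 29.7 CPM, 17.6-fold (95% interval 14.7 to 20.9). It was also common in the high-Nes CTX cells, where 74.1% had an Emx2 UMI, or 46.8% after thinning, beside 71.7% of Cajal-Retzius cells after thinning. The zinc-finger factor Zic1 ranged from 0 to 11 UMIs per cell with a median of 2 and stood at 239.7 against 3.73 CPM, 64.2-fold (95% interval 43.6 to 96.6). Its relatives Zic2 and Zic5 stood at 127 against 0.96 CPM and 133 against 1.07 CPM. These 2 neighbouring genes on chromosome 14 were each seen in 31 and 30 of 49 Cajal-Retzius cells and in 9 and 10 of 988 comparison cells. Barhl2, a homeobox factor also present in the diencephalon, was seen in 20 Cajal-Retzius cells and 2 comparison cells, at 79.2 against 0.213 CPM, with 2 comparison UMIs behind a ratio of 371-fold (95% interval 95.9 to 3176). The early B-cell factor relatives of Ebf3 were higher too, Ebf1 at 72.9 against 6.19 CPM and Ebf2 at 100.0 against 9.81 CPM. Ebf1 had 20 of its 21 positive cells in the high set.

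The remaining higher genes of the list were Cdkn1a, Cxcr4, Nxph3 and Snhg11. Cxcr4, the receptor of the chemokine Cxcl12 released by the meninges, ranged from 0 to 5 UMIs per cell with a median of 1 and stood at 115 against 3.41 CPM, 33.6-fold (95% interval 21.3 to 53.7). All 29 Cajal-Retzius cells with a Cxcr4 UMI were high cells. Nxph3, a secreted neurexophilin that binds neurexins, stood at 89.6 against 6.51 CPM, and the long noncoding RNA Snhg11 at 194 against 10.2 CPM. Tbr1, a T-box factor of early-born glutamatergic neurons, was seen in 48 of 49 cells and was within 2-fold at 563 against 319 CPM. Lhx9 was within 2-fold as well, at 139.6 against 101 CPM. Eomes, a T-box factor of intermediate progenitors, was the 1 lower gene of the list, at 33.3 against 298 CPM, 8.95-fold (95% interval 5.5 to 15.7) lower, with 31.2% of its 16 UMIs in 1 cell. Ndnf, a secreted factor known from these cells, was below the level filter with 11 UMIs in 7 Cajal-Retzius cells and 0 in 988 comparison cells.

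**Figure D4:**
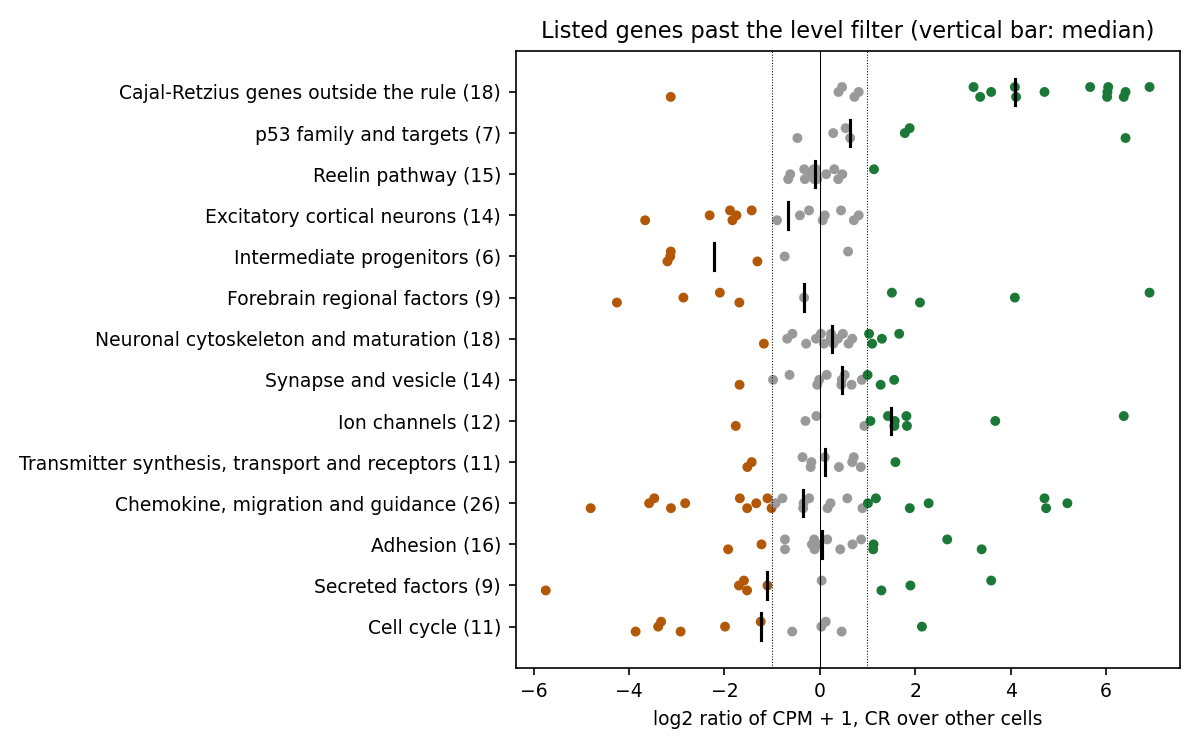
Log2 ratio of CPM in CTX Cajal-Retzius cells over other high-Dcx cells for each listed gene past the level filter, rule genes left out, with the number of genes per list in brackets and a bar at each median. The Cajal-Retzius genes outside the rule have a median of 4.10, ion channels 1.50 and intermediate progenitor genes -2.22.

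Promoter sequence is shown for 3 genes, with and without the motif CCCNNGGG. The early B-cell factors bind this core, and Ebf1 and Ebf2 were higher. Reln and Ebf3 are rule genes, so their levels were set by the selection. Whether an early B-cell factor acts on any of the 3 genes was not tested. The 250 bases before the RefSeq start are given on the gene's strand (build GRCm38.p6), with each CCCNNGGG match in capitals. Reln is at chr5:22344706-22344955, minus strand, Ebf3 at chr7:137314446-137314695, minus strand and Nr2f2 at chr7:70366747-70366996, minus strand.

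Reln: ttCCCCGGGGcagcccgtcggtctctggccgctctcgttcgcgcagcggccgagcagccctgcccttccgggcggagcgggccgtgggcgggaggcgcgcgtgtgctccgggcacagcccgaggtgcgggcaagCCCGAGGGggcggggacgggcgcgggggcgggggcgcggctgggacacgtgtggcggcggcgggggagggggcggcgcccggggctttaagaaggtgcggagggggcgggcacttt
Ebf3: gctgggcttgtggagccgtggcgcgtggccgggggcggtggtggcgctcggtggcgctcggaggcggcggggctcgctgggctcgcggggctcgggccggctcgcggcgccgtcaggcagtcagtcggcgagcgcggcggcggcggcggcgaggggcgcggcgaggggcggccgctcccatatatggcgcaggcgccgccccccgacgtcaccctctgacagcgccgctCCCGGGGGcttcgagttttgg
Nr2f2: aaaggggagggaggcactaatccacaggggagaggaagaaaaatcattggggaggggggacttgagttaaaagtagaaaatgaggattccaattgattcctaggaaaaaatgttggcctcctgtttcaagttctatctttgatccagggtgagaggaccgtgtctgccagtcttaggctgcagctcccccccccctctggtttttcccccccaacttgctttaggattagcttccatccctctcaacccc

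The Reln stretch holds 2 matches, 1 of them the palindrome farthest from the start, the Ebf3 stretch holds 1 close to the start, and the Nr2f2 stretch holds none. The same stretch was read for Trp73 at 2 starts and for Cacna2d2, with no match in any of the 3, and for Insm2, a gene described below, with 1 match. The Reln and Ebf3 stretches are both 80.0% G or C, and that of Nr2f2 is 50%. RefSeq gave a start for 264 of the 357 higher and 234 of the 324 lower genes. CCCNNGGG, which reads alike on both strands, was in 23.1% of the higher, 19.7% of the lower, 17.9% of 4570 compared and 13.4% of all 27025 genes. CAGCTG, an E-box that many basic helix-loop-helix factors bind and also a palindrome, was in 20.5%, 12.4%, 13.0% and 14.7%. CATCTG, searched on both strands, was in 15.2%, 10.7%, 10.5% and 16.3%. Of the other motifs searched, on both strands, TAATTA was in 1.89% of higher and 2.56% of lower genes, CATATG in 1.14% and 2.56%, ACATG in 16.7% and 14.96%, TATAAA in 7.20% and 7.26%, and TCCCNNGGGA, which contains the core, in 1.52% and 1.71%. These shares are descriptions, and a match is not a binding site.

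The Reelin pathway was nearly level beyond Reln itself. Of the 15 other genes past the filter, 1 was higher and 0 were lower, with a median log2 ratio of -0.10. That gene was Src, a kinase that can phosphorylate Dab1, at 89.6 against 40.2 CPM. Its call was lost with the 12 high-Dcx Cajal-Retzius cells alone and with a pseudocount of 10 CPM. The receptor gene Lrp8 stood at 66.7 against 106 CPM, and Vldlr was below the filter with 9 UMIs in the Cajal-Retzius cells at 18.8 against 23.7 CPM. Dab1, the adaptor within cells that receive Reelin, stood at 91.7 against 141 CPM over all 49 cells, within 2-fold. In the 37 high cells it had 3 UMIs, 8.53 CPM, 16.6-fold (95% interval 5.66 to 80.4) lower than in the comparison cells, and in the 12 low cells it stood at 319.6 CPM. The high cells thus combined Reln at 3126 CPM with Dab1 in 3 of 37 cells. Fyn, Crk, Rap1a, Rap1b, Akt1, Gsk3b and Pafah1b1, which carry the signal onward in receiving cells or the cytoskeleton, were each within 2-fold.

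Genes of the p53 family and its targets followed. Of 7 genes past the filter besides Trp73, 3 were higher and 0 lower. Cdkn1a encodes p21, an inhibitor of cyclin-dependent kinases. It ranged from 0 to 11 UMIs per cell with a median of 2, was seen in 36 of 49 Cajal-Retzius cells and 13 of 988 comparison cells, and stood at 229 against 1.71 CPM, 134-fold (95% interval 79.1 to 243). Ccng1, a cyclin, stood at 56.3 against 14.5 CPM, and Bbc3, which encodes the pro-apoptotic protein PUMA, at 66.7 against 18.7 CPM, 3.57-fold (95% interval 2.37 to 5.23). The Ccng1 call was lost among the 12 high-Dcx Cajal-Retzius cells. Of 4 such inhibitor genes past the filter 1 was higher and 2 were lower. Cdkn1c was lower at 202 against 674 CPM, and Cdkn1b was lower at 47.9 against 105 CPM but within 2-fold in the high cells (56.9 CPM).

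Cell cycle genes were mostly low, with 1 exception. Of 11 past the filter, 6 were lower and 1 higher, with a median log2 ratio of -1.24. Over all 5939 genes 5.46% were lower and 6.01% higher. The proliferation marker Mki67 had 4 UMIs in 4 of 49 cells, at 8.34 against 92.6 CPM, and the topoisomerase gene Top2a stood at 16.7 against 184 CPM. Cdk1, Ccnb1, Ccna2 and Rrm2 were lower too, and the calls for Ccna2 and Rrm2 were lost against comparison cells with Dcx above 2. Ccnd2, cyclin D2, was the exception at 1390.1 against 314 CPM, 4.42-fold (95% interval 4.06 to 4.81). It ranged from 0 to 154 UMIs per cell with a median of 2, and 1 cell gave 23.1% of its UMIs, so its sum rests on a few cells.

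Genes of cortical projection neurons were lower or within 2-fold. Of 14 past the filter, 0 were higher and 6 lower over all 49 cells, with a median log2 ratio of -0.66. In the 37 high cells 8 were lower and 1 higher, with a median of -2.54. Neurod6 had 125 UMIs in 10 of 49 cells, 122 of them in the low set, and stood at 8.53 CPM in the high cells and 1294 CPM in the comparison cells, 152-fold (95% interval 51.9 to 735) lower on 3 UMIs. Sox5 and Fezf2, factors of deep-layer neurons, stood at 8.53 and 17.1 CPM in the high cells and at 548 and 331 CPM in the comparison cells. Bcl11b, which encodes CTIP2, was within 2-fold over all 49 cells but 4.57-fold (95% interval 3.67 to 5.77) lower in the high cells. Slc17a7, the vesicular glutamate transporter VGLUT1, had 0 UMIs in the high cells, at least 10.1-fold lower against a floor of 3 UMIs over the group. Slc17a6, the transporter VGLUT2, was within 2-fold at 104 against 96.9 CPM. The calls for Fezf2, Neurod2, Slc17a7 and Sox5 were lost among the 12 high-Dcx Cajal-Retzius cells, of which 5 belong to the low set.

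**Figure D5:**
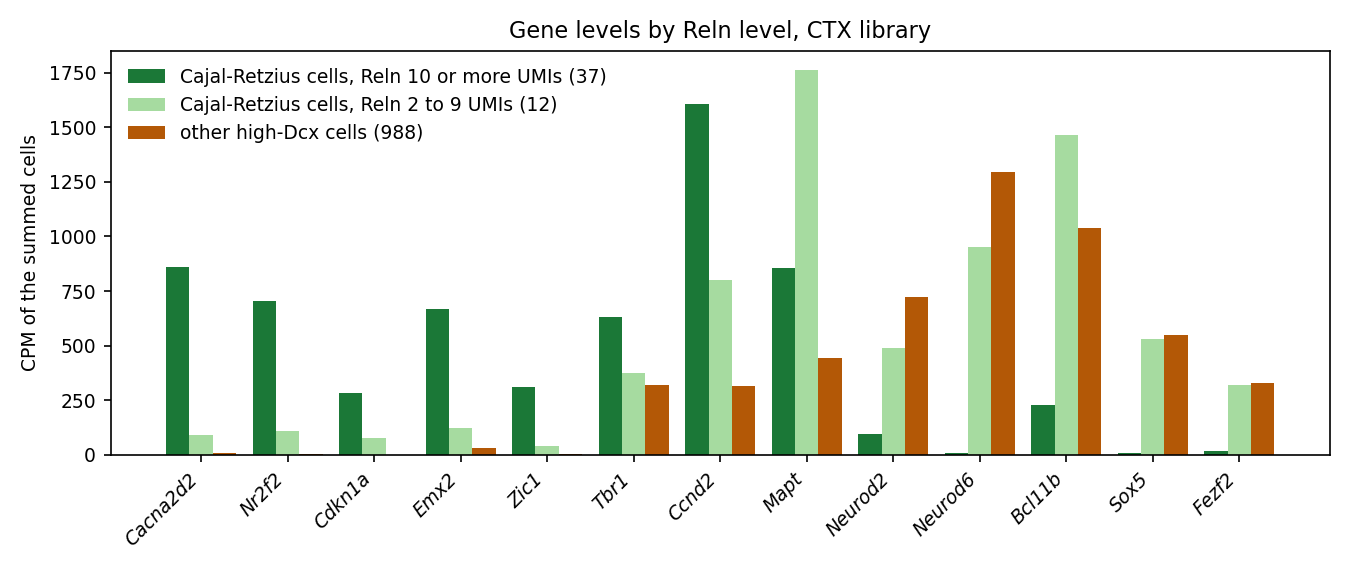
CPM of summed UMIs for 13 genes in the 37 CTX Cajal-Retzius cells with 10 or more Reln UMIs, the 12 with fewer and the 988 other high-Dcx cells. Cacna2d2 stands at 862, 93.5 and 6.93 CPM in these groups, and Neurod6 at 8.53, 951 and 1294 CPM.

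Among 9 regional factors past the filter, 4 were higher and 4 lower. Besides Emx2 and Nr2f2, the higher genes were Dmrta2, a factor of the dorsomedial cortex, at 229 against 52.7 CPM, and Pax6 at 98.0 against 33.7 CPM. The Pax6 call was lost in 3 alternatives, among them the 1989 Neurod2 or Neurod6 cells as comparison. Meis2 was 19.9-fold (95% interval 10.8 to 41.6) lower at 20.8 against 415 CPM. Nr2f1, which encodes COUP-TFI, was 4.3-fold (95% interval 3.23 to 5.87) lower at 98.0 against 422 CPM, opposite to its relative Nr2f2. Emx1 was lower at 54.2 against 177 CPM, opposite to Emx2, a call that was lost in the high-Dcx Cajal-Retzius cells.

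Both hem genes that passed the filter, of 12 on that list, were higher. At its level in the comparison cells, Wnt5a could pass the filter only by being higher. Wnt5a, a secreted Wnt ligand, ranged from 0 to 5 UMIs per cell with a median of 1 and stood at 102 against 8.11 CPM, 12.6-fold (95% interval 8.61 to 18.3). Rspo3, a secreted enhancer of Wnt signalling, ranged from 0 to 11 UMIs per cell with a median of 2 and stood at 292 against 77.4 CPM, 3.77-fold (95% interval 3.12 to 4.52). Lmx1a, the roof plate and hem factor, was below the filter with 14 UMIs in 11 Cajal-Retzius cells and 1 UMI in the comparison cells, but it was also seen in 14 of the 156 red blood cell barcodes. The hem genes Wnt3a, Msx1, Bmp4 and Bmp6 had 0 UMIs in both groups.

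Markers of GABAergic, endothelial, microglial and choroid plexus cells were at or near 0, while radial glia genes summed to 807 CPM, beside 756 CPM in the comparison cells. All 10 GABAergic genes below the filter had 0 UMIs in the 49 cells, Gad1, Gad2 and Slc32a1 among them, and these 10 summed to 111 CPM in the comparison cells. All 6 endothelial genes were at 0. Microglial genes summed to 2.08 CPM, choroid plexus genes to 6.25 CPM with Ttr at 0, and mesenchymal genes to 18.8 CPM, beside 2.88 CPM for the last list in the comparison cells. Of the 9 diencephalic genes, 6 were at 0 and Barhl2 was higher. Of 6 intermediate progenitor genes past the filter, 4 were lower and 0 higher, at a summed 408 against 1033 CPM for the list, with Neurog2 at 20.8 against 191 CPM. Of 6 radial glia genes past it, Pax6 and Sox9 were higher and Sox2 was lower, with Sox9 at 106 against 14.2 CPM and 6 UMIs of Sox2. In the 37 high cells Nes was higher too, at 111 against 44.3 CPM, which made 3 of these 6. Whether radial glia RNA has a part in the levels of these genes was not tested. Erythroid transcripts summed to 64.6 against 85.2 CPM.

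Ion channel genes were mostly higher. Of 23 genes 12 passed the filter, 8 were higher and 1 lower, with a median log2 ratio of 1.50. Over all 5939 genes 6.01% were higher and 5.46% lower. All 3 alpha2delta subunits past the filter were higher, Cacna2d2 as above, Cacna2d3 at 93.8 against 6.4 CPM, 14.7-fold (95% interval 9.73 to 21.9), and Cacna2d1 at 242 against 115 CPM. The sodium channel genes Scn3a and Scn3b, which encode an embryonic pore subunit and a beta subunit, stood at 89.6 against 24.5 CPM and 91.7 against 30.2 CPM. The potassium channel genes Kcnb2 and Kcnc1 stood at 93.8 against 31.0 CPM and 75.03 against 20.6 CPM, and the calcium channel pore gene Cacna1b at 56.3 against 20.3 CPM. Kcnq3 was lower at 14.6 against 51.8 CPM. The calls for Cacna2d1, Kcnb2 and Kcnq3 were each lost in 1 alternative, and none of the 8 higher genes was lost in the 37 high cells.

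Most axonal and synaptic genes were within 2-fold. Of 18 cytoskeletal genes past the filter 4 were higher and 1 lower over all 49 cells, but in the 37 high cells 1 of 17 was higher and 1 lower, beside 7.59% higher and 6.95% lower of all 5958 genes compared there. Gap43, an axonal growth cone protein, ranged from 1 to 29 UMIs per cell with a median of 10, stood at 1042 against 328 CPM, and was seen in all 49 cells and in 569 of 988 comparison cells. Mapt, the tau gene, was also in all 49 cells at 1096 against 444 CPM, but it fell within 2-fold in the high cells at 853 CPM and stood at 1762 CPM in the low cells. Stmn2 and Ina, at 2419.6 against 1182 CPM and 1144 against 534 CPM, likewise fell within 2-fold in the high cells, at 2165 and 1027 CPM. Of 14 synaptic genes 3 were higher and 1 lower, and in the high cells 2 of 13 were higher and 2 lower, with the vesicle fusion gene Stx1a at 77.1 against 25.5 CPM. Syn1, also higher, lay at the threshold at 62.5 against 30.7 CPM and was within 2-fold in the high cells at 59.7 CPM. Cplx2, a complexin of the synaptic vesicle machinery, stood at 79.2 against 157 CPM and was lower in the high cells at 28.4 CPM. Among 11 transmitter genes 1 was higher and 2 were lower, Slc17a7 and the AMPA receptor gene Gria2, which stood at 133 against 384 CPM, a call lost in the high-Dcx Cajal-Retzius cells. In the comparison of all 49 cells, 6.01% of all 5939 genes were higher and 5.46% lower. Of 7 calcium-binding protein genes past the filter besides Calb2, Hpcal1 was higher at 68.8 against 21.7 CPM and 0 were lower.

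Guidance and migration genes went both ways. Of 26 past the filter 7 were higher and 10 lower, with a median log2 ratio of -0.34. Over all 5939 genes 6.01% were higher and 5.46% lower. Sema6a, a transmembrane semaphorin, ranged from 0 to 9 UMIs per cell with a median of 3 and stood at 315 against 10.8 CPM, 29.2-fold (95% interval 22.6 to 38.0). The netrin receptor gene Unc5b stood at 66.7 against 0.853 CPM, 78.1-fold (95% interval 35.3 to 196), while its relative Unc5d had 0 UMIs in the 49 cells and 453 in the comparison cells, below the level filter. Plxnd1, a semaphorin receptor, was higher at 102 against 26.9 CPM. Of the neuropilin pair, Nrp2 was higher at 91.7 against 40.0 CPM and Nrp1 was lower at 8.34 against 259.7 CPM, 31.1-fold (95% interval 12.1 to 114). Plxna2 was lower at 31.3 against 356 CPM and Sema6d at 4.17 against 60.7 CPM. Of the ephrin receptors, Epha3 was lower at 35.4 against 316 CPM, Epha4 at 39.6 against 286 CPM and Epha5 at 363 against 1161 CPM, while the ligand gene Efna5 was higher at 62.5 against 12.1 CPM. Calls for Cxcl12, Efna5, Efnb1, Efnb2, Epha5, Flrt2, Flrt3 and Nrp2 were lost in at least 1 alternative. In the high-Dcx Cajal-Retzius cells Flrt2 changed sign but was within 2-fold. Flrt2 was seen in 0 of the 37 high cells. Cxcl12 was lower at 16.7 against 36.8 CPM over all 49 cells and within 2-fold in the high cells at 22.8 CPM.

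Some adhesion and secreted genes differed by a large fold. Of 16 adhesion genes past the filter, 4 were higher and 2 lower over all 49 cells, with a median log2 ratio of 0.06. Cdh4, R-cadherin, ranged from 0 to 7 UMIs per cell with a median of 2 and stood at 229 against 20.9 CPM, 11.0-fold (95% interval 8.6 to 13.9). Nectin1, which is known to mediate contact between Cajal-Retzius cells and migrating neurons, stood at 60.4 against 8.64 CPM, 6.99-fold (95% interval 4.41 to 10.8). Ncam1 at 396 against 182 CPM and Cntnap2 at 179 against 81.5 CPM were higher, Pcdh9 and Pcdh19 lower, and all 4 of these calls were lost in at least 1 alternative. In the high cells 5 of 13 adhesion genes were higher and 1 lower, beside 7.59% higher and 6.95% lower of all 5958 genes there. Chl1 was higher in the high cells at 137 against 60.1 CPM. Of 9 secreted factors past the filter besides Reln, 3 were higher and 5 lower, beside 6.01% and 5.46% of all 5939 genes. Wnt7b was higher at 681 against 278 CPM, a call lost in the high-Dcx Cajal-Retzius cells, and Igfbpl1, a binding protein relative of young neurons, was lower at 561 against 1614 CPM. Sst, which encodes somatostatin, had 0 UMIs in the Cajal-Retzius cells and 493 in 50 comparison cells, at least 8.41-fold lower. With GABAergic cells removed from the comparison Sst was at 0 in both groups.

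Outside the lists, the 15 genes with the highest ratio held 3 noncoding neighbours of homeobox factor genes. Lhx1os (chr11:84525660-84535831) lies 124 bases from Lhx1 and had 70 UMIs in 31 Cajal-Retzius cells and 2 in the comparison cells. Gm27199 (chr5:120419659-120431767) overlaps the opposite strand of Lhx5 by 69 bases and had 51 UMIs against 1. Gm28050 (chr5:106500894-106574718) lies 42.7 kb from Barhl2 and had 68 against 21. Reads in the stretch shared by Gm27199 and Lhx5 could be told apart only if the counting used strand, which is not given in the sources used here. Insm2, a zinc-finger factor, had 35 UMIs in 21 cells and 0 in 988 comparison cells, at least 228-fold higher against a floor of 3 UMIs over the group. Ggt5, a gamma-glutamyltransferase, had 24 UMIs in 20 cells, all of them high cells, and 0 in the comparison cells, at least 156-fold higher. Tmem163, a zinc transporter, ranged from 0 to 8 UMIs per cell with a median of 2 and stood at 275 against 5.12 CPM, 53.7-fold (95% interval 38.3 to 76.4). Sulf2, a heparan sulfate sulfatase, stood at 117 against 1.49 CPM and the protease inhibitor gene Serpine2 at 110.5 against 2.03 CPM. The other 7 were Thsd7b, Fibin, AI593442, Lypd1, Zcchc12, Ajap1 and E330013P04Rik, with log2 ratios from 4.75 to 5.81.

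Of the 15 lowest genes outside the lists, 14 are given here, and they had few UMIs or none in Cajal-Retzius cells. Abcd2, a peroxisomal transporter, had 0 UMIs against 519, at least 8.86-fold lower. Sstr2, a somatostatin receptor, was 22.5-fold (95% interval 8.78 to 82.8) lower at 8.34 against 188 CPM. Rnd2, a small GTPase of migrating cortical neurons, was 13.0-fold (95% interval 9.32 to 18.6) lower at 72.9 against 946 CPM, and was seen in 17 of 49 Cajal-Retzius cells and 862 of 988 comparison cells. Tiam2, an exchange factor for Rac, had 2 UMIs against 782, 4.17 against 83.4 CPM. The other 10, Slc30a10, Cabp1, Ppp1r14a, Tuba4a, Wwc1, Baz1a, Fzd2, Alcam, Foxp1 and Rasgef1b, had log2 ratios from -4.34 to -2.87.

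The 8 CGE cells were of unequal kind. Cells 4 and 5 held 54775 and 109138 UMIs, with 8498 and 10195 genes, 20 and 33 UMIs of Mki67 and 6 and 11 of Nes. Of their 20 nearest CTX neighbours, 0% and 5.00% were CTX Cajal-Retzius cells. The data go against the label Cajal-Retzius for these 2 cells, although they meet the rule. Without them the CGE share was 0.163% (exact 95% binomial interval 0.0598 to 0.354). The CTX share of 1.11% still counts the 6 CTX cells whose label the data also go against, so these 2 shares are not on a par. The other 6 CGE cells held 6013 to 13469 UMIs and fewer than 4500 genes, had 0 Mki67 UMIs each, and had neighbour shares of 60.0 to 100%. Reln was 19 UMIs in 1 of these 6 and 2 to 6 in the other 5. Each of the 6 had 3 or more UMIs of the rule gene Lhx1, of Cacna2d2 and of Nr2f2, and 1 or more of Emx2, Zic1, Zic2 and Tbr1. Nr2f2 was also common in 2502 other high-Dcx CGE cells, at 653 CPM beside 963 CPM in the 6. Trp73 and Nhlh2 were seen in 5 of the 6 cells each. Some other genes that were higher in the CTX cells were seen in few of these 6 cells. Ebf3 was seen in 3 of the 6, Calb2 and Lhx5 in 2 each, Cxcr4 in 1, and Nxph3 and Ggt5 in 0. Of the 49 CTX cells, 29 had Ebf3, 42 Calb2, 36 Lhx5, 29 Cxcr4 and 20 Ggt5. The 95% interval of the ratio of levels, CGE over CTX, includes 1 for Ebf3, Lhx5, Cxcr4 and Ggt5. It lies below 1 for Calb2 and Nxph3. Dlx2 was at 0 in the 6 cells, beside 458 CPM in the 2502 other cells.

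The 6 CGE cells were compared with the 49 CTX cells by level, with genes chosen after their values were seen. The 49 still include the 6 low cells with 8 or more Neurod6 UMIs, so the CTX side was not cleaned as the CGE side was. In the 37 high CTX cells alone, Cacna2d2 stood at 862 CPM, Emx2 at 666, Zic1 at 313, Ccnd2 at 1604 and Reln at 3126. Of the rule genes, which chose both groups and are given as a description, Reln stood at 702 against 2376 CPM, Calb2 at 120.4 against 659 CPM and Lhx1 at 762 against 271 CPM. Of genes outside the rule, Ccnd2 stood at 80.3 against 1390.1 CPM, a ratio of 0.0577 (95% interval 0.0157 to 0.149). The CTX sum of Ccnd2 rests on a few cells, with 154 of its 667 UMIs in 1 cell. Its median was 2 UMIs per CTX cell, and the 6 CGE cells had 0 to 2 each. Zic1 stood at 522 against 239.7 CPM, a ratio of 2.18 (95% interval 1.36 to 3.35). Rspo3 stood at 1745 against 292 CPM, a ratio of 5.98 (95% interval 4.52 to 7.87). Cdkn1a stood at 1204 against 229 CPM, a ratio of 5.25 (95% interval 3.77 to 7.26), with 28 of its 60 UMIs in 1 cell. For Emx2, Tbr1, Cacna2d2 and Wnt7b the interval against all 49 CTX cells includes 1, with ratios of 0.854 to 1.28. Nr2f1 stood at 441 against 98.0 CPM, a ratio of 4.51 (95% interval 2.59 to 7.63), beside 1476 CPM in the other high-Dcx CGE cells. Region and library cannot be told apart here, the 6 cells are not replicates, and the intervals cover counting error only and are no test between regions.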

How the data were processed

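Single-cell RNA libraries (10x Genomics, polyA RNA) were made from CTX, LGE, MGE and CGE of wild-type E12.5 embryos, 1 library each. The authors deposited raw UMI counts per gene and barcode, aligned to mm10 with Cell Ranger at default parameters. The file headers name version 3.0.2 and the submitters' processing notes 3.0.0. The gene annotation and the use of strand are not given in the sources used here. The files held 4301 to 6953 barcodes and 31451467 to 49794765 UMIs per library, and 43346 features. Samples were grouped by the region in their labels.

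Barcodes were filtered and Cajal-Retzius cells chosen as stated above, in Python 3.11.15 with numpy 2.4.6, scipy 1.17.1, pandas 2.3.3 and scikit-learn 1.9.0. Doublets were left in, and an alternative removed those scored highest against simulated sums of cell pairs, at 0.8% per 1000 barcodes. Counts were summed over cells and scaled to CPM. Ratios carry exact conditional binomial 95% intervals of Poisson counts, and shares carry exact Clopper-Pearson intervals, both for counting error only. With 1 library per region no test between groups and no p-value was possible. The procedure was tested on simulated data, where 199 of 200 changed genes among 3613 passed the 2-fold limit in their direction. All planted changes were larger than the limit, and the genes used had higher levels than the filter asks. Simulated cells differed by depth and counting error only. The simulation therefore does not bear on calls near 2-fold, on genes with few UMIs or on groups of mixed cells.

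The cells, the gene lists and the motifs were chosen with earlier results of these data known. Listed genes could be named, as could the 15 highest and 15 lowest genes outside the lists that had a UMI in 25% or more of the cells of the higher group, no cell with over 25% of its UMIs, and no mitochondrial, ribosomal, haemoglobin or sex-linked role. Some genes that met these rules are not reported here, though counts over a list include them. Of 380 named genes 379 matched GENCODE M21 (GRCm38) by identifier, and 197 of these overlap another gene. Promoters came from RefSeq. Thinning drew 3000 UMIs per cell without replacement, which left out 3 Cajal-Retzius and 80 comparison cells. The alternatives changed the cell filter, the rule, the comparison cells, depth, weighting, level filter and pseudocount.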

Additional observations from a re-analysis of the deposited data

How the results depend on the processing

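The count of 49 CTX Cajal-Retzius cells ranged from 37 to 58 under the other settings but rose to 86 where 1 other marker gene was enough, a setting that also found 1 cell each in LGE and MGE. The 8 CGE cells fell to 5 with 3 or more Reln UMIs, to 2 with 5 or more, to 2 after thinning to 3000 UMIs and to 1 with 10 or more. The numbers of higher and lower genes were 611 and 556 after thinning, 637 and 636 with a mean CPM of 10 or more, and 196 and 180 with a mean of 50 or more, where more or fewer genes enter. Of 123 named genes called, 86 kept their call in all 16 alternatives. Flrt2 alone changed sign, to a log2 ratio of 0.11 in the high-Dcx Cajal-Retzius cells, which is within 2-fold. All 19 Flrt2 UMIs of the 49 cells lay in 7 low cells, and 5 of the 12 high-Dcx cells are low cells. The cause was not tested. Of the 357 higher and 324 lower genes, 325 and 282 kept their call with 10 or more Reln UMIs, and 317 and 260 against the Neurod2 and Neurod6 cells. These last 2 alternatives were chosen after seeing the data. The neighbour share ranged from 80.8% to 82.2%. No paired analysis was possible because each region has 1 sample. Depth limits what can be said of LGE and MGE and of genes with few UMIs in 49 cells.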
